A study of Mus musculus with 8 samples.

Results

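The effect of interferon gamma (IFNg) on CD90-negative cells of a mouse mammary tumour line was described across all genes. The comparison was chosen by sample labels: 2 libraries of IFNg-treated CD90neg cells (A and B) were set against 2 libraries of untreated CD90neg cells (A and B), 4 of the 8 libraries of the series, with A paired to A and B to B. In the CD90neg IFNg group, sorted CD90neg cells had received IFNg at 10 IU/ml for 24 h. The CD90neg control group was the same sorted population without IFNg. The other 4 libraries, CD90pos IFNg and CD90pos control, came from the CD90-positive population of the same line and entered the fit to estimate the spread. Cells of all 4 groups were PyMT cells from a primary mammary tumor, genotype WT, grown in DMEMF12 with 2% serum, 10 ug/ml insulin and 20 ng/ml EGF at 37 °C in 5% CO2. PyMT is the polyoma middle T oncogene, which drives mammary tumours in mice. The labels give 1 line and do not state how many tumours or clones it came from, what A and B mean, or whether sorting came before or after treatment. Of 12964 genes in the table, 12962 reached 10 or more normalized reads in at least 2 of the 8 libraries and were tested.

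IFNg is a cytokine made by activated T cells and NK cells. It binds a receptor of IFNGR1 and IFNGR2 chains, whose kinases JAK1 and JAK2 activate STAT transcription factors. STAT dimers bind gamma-activated sites and switch on IRF1 and other transcription factors, which bind interferon-stimulated response elements in a later wave of genes. In epithelial and tumour cells the pathway is known for raising antigen presentation, chemokines for T cells, and GTPases that attack intracellular microbes.

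The 8 libraries held between 31243646 and 40899909 recovered reads, and 3 reads corresponded to 2.55 to 3.37 normalized reads. Thy1, which encodes CD90, had 55.7 and 65.5 normalized reads in CD90neg IFNg libraries A and B and 20.6 and 16.6 in CD90neg control libraries, while CD90pos libraries had 2195 and 3936 with IFNg and 283 and 1495 in controls. Thy1 was not called within CD90neg cells (log2 fold change 1.65, standard error 0.58, adjusted p = 0.243). The epithelial markers Krt8 and Epcam were high in all 4 CD90neg libraries. Krt8 had 137170 and 314510 with IFNg (A and B) and 116210 and 289470 in controls. Epcam had 13743 and 20467 with IFNg and 10714 and 21285 in controls. Some other markers differed strongly between A and B. The luminal marker Elf5 had 16.8 and 1625 with IFNg and 27.8 and 1040 in controls. The basal marker Acta2 had 1027 and 67619 with IFNg and 696 and 46629 in controls. Vim was higher in A, with 68603 and 19541 with IFNg and 50710 and 7320 in controls. Of 16 leukocyte markers, 6 were in the table and none was called, and their summed levels were 1236 and 218 with IFNg (A and B), against 1236 and 238 in controls (A and B). Ptprc and Cd3e were not among those 6, and Csf1r stood at 66.3 and 22.98 with IFNg and 97.8 and 88.4 in controls. Of 11 macrophage markers, 8 were in the table, none was called, and their sums were 1476 and 266 with IFNg (A and B), against 1359 and 267 in controls. Fibroblast markers (10 of 12 in the table, none called) summed to 10810 and 22070 with IFNg and to 10970 and 10820 in controls. Of 10 endothelial and pericyte markers, 4 were in the table; Mcam fell, with 855 and 3572 in IFNg libraries, against 2279.9 and 5996 in controls (log2 fold change -1.08, adjusted p = 0.0219), and lost its call in 3 of the 8 fits that leave out 1 library. In bulk RNA, fewer cells of a type and less RNA per cell cannot be told apart. The letters separated the libraries more than IFNg did: over the 4 CD90neg libraries, the first principal component (60.8% of the variance) split A from B, and the second (34.5%) split IFNg from control. The fit takes out the difference between A and B that the groups share. The p-values therefore reflect only the spread left among the 8 libraries after group and letter. Nothing in the labels states that A and B were separate cultures, so part or all of that remaining spread may be technical.

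IFNg raised 451 genes and lowered 86 in CD90neg cells. Those calls were 4.14% of the genes tested, 3.48% higher and 0.663% lower (limma with the letter as a block, adjusted p under 0.05 over 12962 genes). Increases were larger than decreases: the median log2 fold change was 2.37 over the genes called higher and -1.01 over those called lower, against -0.02 over all genes tested. Pairs of values for 1 group are those of libraries A and B in that order, and other values after gene names are log2 fold changes. On that log2(normalized reads + 1) scale, 257 genes rose by 2 or more, 74 by 5 or more and 32 by 7 or more, whereas 7 genes fell by 2 or more and 1 by 3 or more. All 451 and all 86 moved in their called direction in both letters, and 349 and 28 of them changed at least 2-fold in both. The genes were called on these same libraries, so that agreement follows largely from the selection and is not replication. Agreement between letters was not counted over all genes tested. In 414 of the 451, both IFNg libraries lay above both control libraries, and in 51 of the 86 both lay below. Among all genes tested the IFNg libraries lay wholly above the controls in 14.3% and wholly below in 14.7%. Genes called higher took 7.04% and 7.19% of all normalized reads in IFNg libraries A and B, against 1.46% and 1.70% in control libraries A and B. Genes called lower took 0.464% and 0.440% with IFNg, against 0.847% and 0.858% in controls. Without the letter block, 82 genes were called higher and 1 lower. Leaving out 1 library at a time left between 212 and 563 genes called higher and between 7 and 135 called lower, and 163 higher and 4 lower genes were called in each of these 8 leave-one-out fits. Of the 229 called genes followed by name, 92 held in all 8, and for the genes the results turn on the calls that were lost are given beside each group, with the highest adjusted p. A call lost in 6 fits was lost without any 1 of the 4 CD90neg libraries and without either CD90pos IFNg library, and a call lost in 4 fits without any 1 of the 4 CD90neg libraries. In 21 of the 451, both controls held 3 reads or fewer. The fitted fold changes of these genes, and of genes with 1 control at 0, depend on the pseudocount of 1.

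**Figure D1:**
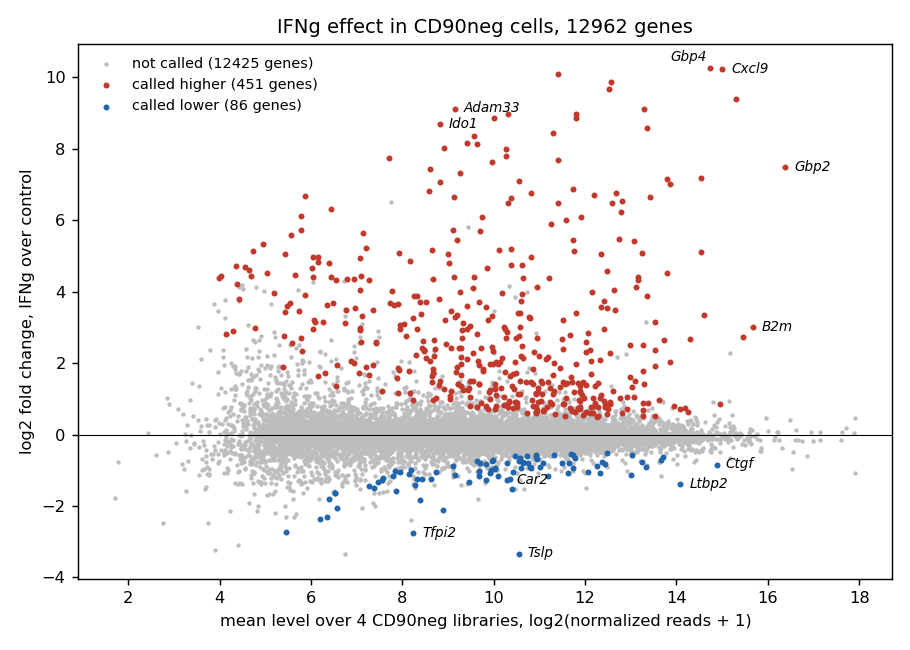
Log2 fold change of IFNg over control in CD90neg cells (vertical axis) against the mean level over the 4 CD90neg libraries, log2(normalized reads + 1) (horizontal axis), 1 point per gene. Red points are the 451 genes called higher and blue points the 86 called lower; the red cloud reaches beyond 10 at high levels, and the blue one reaches down to -3.34.

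**Figure D2:**
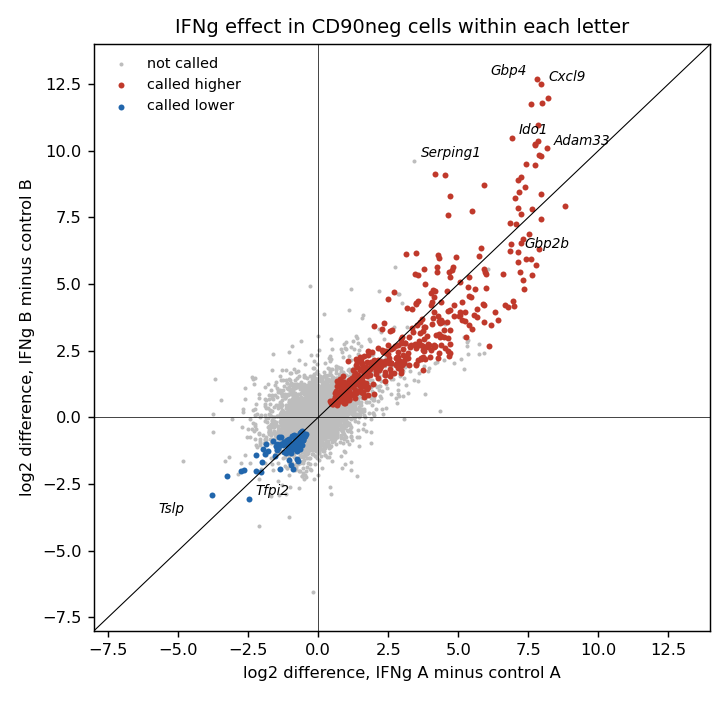
Log2 difference between IFNg and control libraries in letter A (horizontal axis) and letter B (vertical axis), 1 point per gene, with the line of equal change. Called genes (red higher, blue lower) changed in the same direction in both letters, which their selection on these same libraries favours. Gbp4 and Cxcl9 lie far above the line.

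Called genes, selected on these same libraries, moved the same way in both letters, but often by different sizes. Across the 12962 genes, which share libraries and are not independent replicates, the letter A and letter B differences had a Pearson r of 0.763, and across the 12425 genes not called r was 0.424. Among the genes called higher, 124 differed by more than 1 log2 unit between letters, 278 of the 451 changed more in A, and 176 were higher in control A than in control B. A further 295 genes had a log2 fold change of 1 or more and 186 of -1 or less without being called.

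In the signalling chain, STAT transcription factors rose, while neither chain of the IFNg receptor nor the JAK kinases were called higher. Of 9 measured genes of the receptor and JAK-STAT chain, 4 rose and 1 fell, with a median log2 fold change of 0.42. Stat2, a transcription factor of type I interferon signalling, had 5583 and 7234 in IFNg libraries, against 320.1 and 1105 in controls (log2 fold change 3.42, standard error 0.34, adjusted p = 0.00271). Stat3, activated by IL-6-type cytokines, rose by 1.61 (adjusted p = 0.00753), and Ifnar2, a chain of the type I interferon receptor, by 0.72 (adjusted p = 0.0266). Ifngr2, the signalling chain of the IFNg receptor, had 911 and 1477 in IFNg libraries, against 1413 and 2336 in controls; it was lower with IFNg within each letter (log2 differences of -0.63 in A and -0.66 in B), although the groups overlapped because B was higher than A (adjusted p = 0.0217). Ifngr1, the ligand-binding chain, had 1227 and 1476 in IFNg libraries, against 1311 and 1827 in controls and was not called (log2 fold change -0.20). Jak1 had 6800.3 and 7149 in IFNg libraries, against 6472 and 7599.8 in controls, with a log2 fold change of -0.01, and Jak2 2255 and 1989 in IFNg libraries, against 1636 and 1538 in controls, with 0.42; neither kinase was called. The Stat2 call held in all 8 leave-one-out fits. Stat3 lost its call without IFNg A or control A (adjusted p up to 0.068), and Ifngr2 and Ifnar2 in 6 of the 8 (up to 0.262).

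The feedback inhibitors that rose were Socs1, Socs3 and Cish, all of the SOCS family. Of 11 inhibitors measured, 3 rose and none fell, and the median was 0.07. Socs1, which binds and blocks JAK kinases, had 759 and 803 normalized reads in IFNg libraries A and B, against 35.0 and 39.5 in control libraries A and B, and the 2 libraries of each group lay close together (log2 fold change 4.35, standard error 0.23, adjusted p = 0.000573). Socs3 had 5259 and 6158 in IFNg libraries, against 1077 and 621 in controls (log2 fold change 2.80, standard error 0.28, adjusted p = 0.00275), and Cish rose by 1.15 (adjusted p = 0.0314). Usp18, an ISG15 protease that restrains type I interferon signalling, had 832 and 2336 in IFNg libraries, against 97.8 and 845 in controls; the control B library lay above the IFNg A library, and the gene was not called (log2 fold change 2.27, adjusted p = 0.0997). Socs2, also of the SOCS family, was not called (log2 fold change -0.15, adjusted p = 0.869). The phosphatases Ptpn1, Ptpn2, Ptpn6 and Ptpn11 had log2 fold changes between -0.09 and 0.07. Calls of Socs1 and Socs3 held in all 8 leave-one-out fits and without the letter block, and that of Cish was lost in 6 fits (adjusted p up to 0.327).

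Among IRF and BATF transcription factors, 5 of 12 measured rose, none fell, and the median was 0.98. Irf1, a direct target of IFNg signalling, had 23697 and 30453 normalized reads in IFNg libraries A and B, against 701 and 1954 in control libraries A and B (log2 fold change 4.52, standard error 0.40, adjusted p = 0.00177). Both IFNg libraries lay far above both controls. Irf8, best known from myeloid cells, had 2094 and 1255 in IFNg libraries, against 36.0 and 14.6 in controls (log2 fold change 6.08, standard error 0.45, adjusted p = 0.000998). Batf2 had 1567 and 1598 in IFNg libraries, against 9.26 and 2.08 in controls (log2 fold change 8.14, standard error 0.56, adjusted p = 0.000904), the largest fold change in this list. Irf7 had 1162 and 5035 in IFNg libraries, against 71.0 and 882 in controls and rose by 3.26 (adjusted p = 0.0296), with the letter B libraries above the letter A library of the same group. Irf2, a partner and competitor of IRF1, rose by 0.83 (adjusted p = 0.0151). Irf9 had 2737 and 2535 in IFNg libraries, against 378 and 1365 in controls and a log2 fold change of 1.87 that was not called (adjusted p = 0.126). The calls of Irf1, Irf8 and Batf2 held in all 8 leave-one-out fits; Irf7 and Irf2 lost theirs when any of the 4 CD90neg libraries was left out (adjusted p up to 0.222 and 0.175).

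Promoters of 4 genes that rose are printed below because they hold the elements through which IRF and STAT proteins bind DNA. The sequences are those of RefSeq (GRCm38.p6) around the annotated start of each gene, 5′ to 3′ on the strand of the gene. Capitals mark the interferon-stimulated response element (GAAA, any 2 bases, GAAA, on either strand) and the gamma-activated site (TTCNNNGAA, the same on both strands). Positions are those of the first base of a match counted from the start, and no match overlaps another. Matches are descriptions of letters and not measured binding sites.
Gbp2, chr3:142620413-142620712, + strand, response element at -59: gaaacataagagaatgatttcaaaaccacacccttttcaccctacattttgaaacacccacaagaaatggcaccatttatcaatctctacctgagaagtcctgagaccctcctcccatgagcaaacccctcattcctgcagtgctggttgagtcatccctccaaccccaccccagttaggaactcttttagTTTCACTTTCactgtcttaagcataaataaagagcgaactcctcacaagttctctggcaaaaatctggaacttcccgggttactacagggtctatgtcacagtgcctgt
Igtp, chr11:58199306-58199605, + strand, gamma-activated site at -45 and response element at -34: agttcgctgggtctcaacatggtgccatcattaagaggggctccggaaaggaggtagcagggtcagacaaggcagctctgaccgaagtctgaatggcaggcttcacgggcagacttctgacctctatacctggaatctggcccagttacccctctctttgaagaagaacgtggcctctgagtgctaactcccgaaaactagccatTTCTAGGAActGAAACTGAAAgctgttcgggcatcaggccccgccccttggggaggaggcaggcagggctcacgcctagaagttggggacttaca
Cxcl10, chr5:92348840-92349139, - strand, response element at -213: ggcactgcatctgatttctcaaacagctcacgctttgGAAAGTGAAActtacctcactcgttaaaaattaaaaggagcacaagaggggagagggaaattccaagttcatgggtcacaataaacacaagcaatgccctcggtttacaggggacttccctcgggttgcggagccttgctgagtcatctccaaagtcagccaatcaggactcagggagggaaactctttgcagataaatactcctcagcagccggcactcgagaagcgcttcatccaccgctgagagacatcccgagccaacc
Irf1, chr11:53769764-53770063, + strand, gamma-activated site at -90: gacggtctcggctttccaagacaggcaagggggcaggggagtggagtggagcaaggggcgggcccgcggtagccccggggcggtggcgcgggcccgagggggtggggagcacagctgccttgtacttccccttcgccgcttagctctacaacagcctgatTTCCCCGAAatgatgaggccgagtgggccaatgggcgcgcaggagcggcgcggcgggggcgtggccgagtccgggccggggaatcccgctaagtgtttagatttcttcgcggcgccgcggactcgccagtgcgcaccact
Over all 32851 promoters of the table, 3.44% held the response element, 8.3% the gamma-activated site and 0.454% both. A promoter was found for 333 of the 451 genes called higher, or 73.8%, which is too few for a share over that set to be given. In lists with a promoter for at least 80% of their measured genes, the response element was most frequent in AIM2-like and STING pathway genes (5 of 8), Schlafen genes (3 of 5) and apolipoprotein L and serpin genes (5 of 14). It was in 1 of 8 genes of the receptor and JAK-STAT chain, 1 of 10 IRF and BATF genes, 1 of 6 interferon proteasome subunits, 2 of 11 genes of ubiquitin and ISG15 conjugation, 2 of 26 cell death genes, 0 of 16 cytokine receptors and 0 of 8 adhesion molecules. The gamma-activated site was in 5 of 10 IRF and BATF genes, 2 of 8 genes of the receptor and JAK-STAT chain, 3 of 14 apolipoprotein L and serpin genes, and no Schlafen or AIM2-like gene with a promoter.

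The guanylate-binding proteins (GBP) and immunity-related GTPases (IRG), which coat and break vacuoles that hold intracellular microbes, had the highest median of the 52 lists. All 23 measured members were called higher, with a median log2 fold change of 7.19 and a range of 2.96 to 10.26; 1 of the 24 listed genes was not in the table. Gbp4 (chr5:105115767-105139586, GRCm38) had 67624 and 40960 normalized reads in IFNg libraries A and B, against 297 and 5.20 in control libraries A and B (log2 fold change 10.26, standard error 1.25, adjusted p = 0.00612). Its change was larger in B (12.69) than in A (7.82), since control A was higher than control B. Gbp2 (chr3:142620602-142638008) had 119930 and 219330 normalized reads in IFNg libraries A and B, against 853 and 954 in control libraries A and B (log2 fold change 7.49, standard error 0.46, adjusted p = 0.000799), the largest gain in normalized reads, not corrected for length, of any called gene. Per kb of exon it ranked 10 of 12954 genes in IFNg libraries and 4590 in controls. Iigp1 (chr18:60376029-60392627), an IRG protein, had 91071 and 70339 in IFNg libraries, against 398 and 34.3 in controls (log2 fold change 9.40, adjusted p = 0.00182). Igtp (Irgm3), whose promoter holds both elements, had 48231 and 45539 in IFNg libraries, against 262 and 390.1 in controls (log2 fold change 7.19, adjusted p = 0.00218), and Irgm1, a regulatory IRG, had 46797 and 45881 in IFNg libraries, against 1156 and 1538 in controls (log2 fold change 5.12, adjusted p = 0.000202). Both IFNg libraries lay above both controls for each of these genes. Tgtp1, Tgtp2, Gm12185 and F830016B08Rik rose by 9.11, 9.67, 8.87 and 8.86 on the log2 scale. Gbp11 had 171 and 60.4 in IFNg libraries, against 0 and 0 in controls, a level at least 73.8-fold higher with IFNg against a floor of 3 reads over the 2 control libraries. Gbp2b had 43682 and 73.2 normalized reads in IFNg libraries A and B, against 314 and 0 in control libraries A and B: its level in IFNg B was below that in control A, yet it was higher with IFNg within each letter (adjusted p = 0.000931). The log2 difference was 7.12 in A, and in B, where the control was 0, its size depends on the pseudocount. Many of these genes have near-identical neighbours, so reads may be split between copies, and no source used here gives the handling of multi-mapped reads. In 18 of the 23, the call held in all 8 leave-one-out fits, and 14 were called without the letter block. Gbp4 lost its call without control B (adjusted p = 0.0535), Gbp7 and Irgm2 without control A (0.0579 and 0.067), Gbp11 without IFNg A or control A (up to 0.0901), and Gvin1 without IFNg A, control A or control B (up to 0.181).

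**Figure D3:**
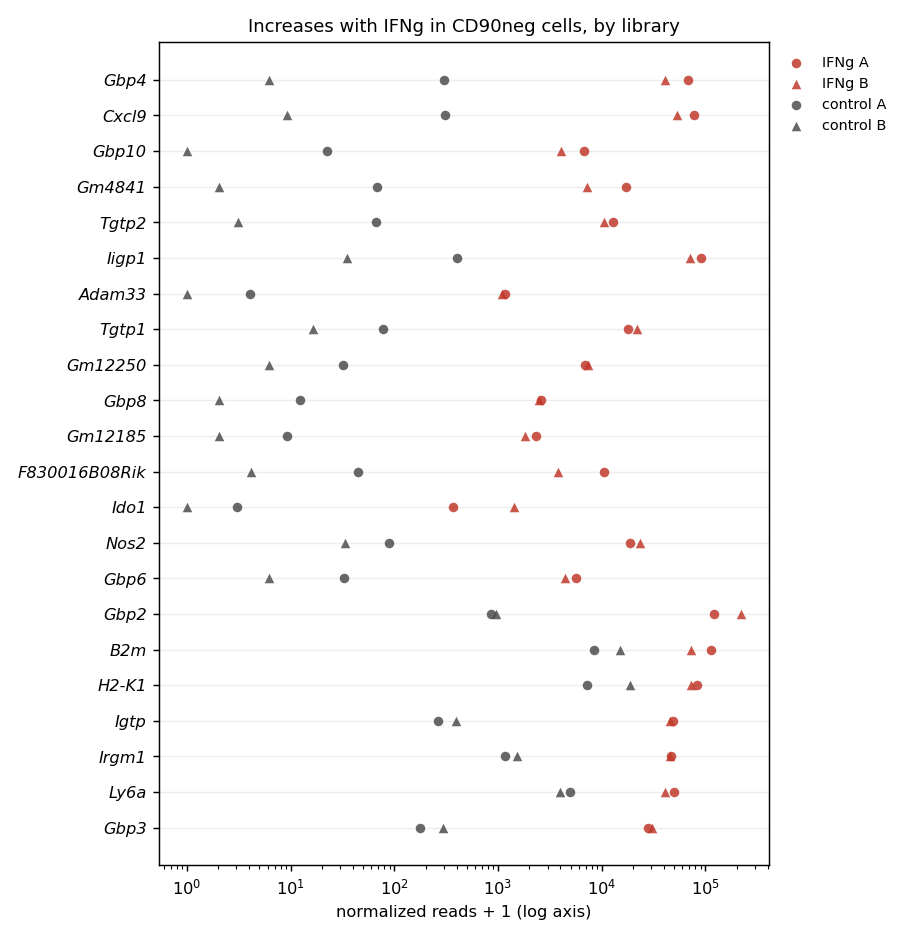
Normalized reads + 1 (horizontal log axis) in each CD90neg library for the genes with the largest increases in log2 fold change or in reads (1 gene per row; red IFNg, grey control; circles letter A, triangles letter B). Both IFNg points lie right of both control points in every row, and for Gbp4, Cxcl9 and Iigp1 control B lies far left of control A.

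MHC class I genes, which present peptides to CD8 T cells, rose in most cases, among them the regulator, the peptide transporter and the surface molecule. Of 21 measured genes, 17 rose, none fell, and the median was 3.01. Nlrc5, the transactivator of class I genes, had 13906 and 12947 normalized reads in IFNg libraries A and B, against 460.1 and 199 in control libraries A and B (log2 fold change 5.47, standard error 0.42, adjusted p = 0.0011). Tap1, a subunit of the transporter that carries peptides into the endoplasmic reticulum, had 17624 and 16926 in IFNg libraries, against 1006 and 744 in controls (log2 fold change 4.32, standard error 0.13, adjusted p = 0.000106), and Tap2, its partner, had 10270 and 13792 in IFNg libraries, against 591 and 892 in controls (log2 fold change 4.03, standard error 0.14, adjusted p = 0.000158). The 2 libraries of each group lay close together for Tap1 and Tap2, while the Nlrc5 control was higher in A than in B. B2m, the light chain of class I molecules, had 112570 and 72556 in IFNg libraries, against 8345 and 15104 in controls, a larger change in A (3.75) than in B (2.26), where the control was higher and the IFNg library lower than in A (adjusted p = 0.0153). By reads per kb it ranked 3 of 12954 genes with IFNg and 73 in controls. H2-K1, a classical heavy chain, had 82065 and 72616 in IFNg libraries, against 7211 and 18701 in controls (log2 fold change 2.73, adjusted p = 0.0273). H2-D1, the other one, had 66384 and 55433 in IFNg libraries, against 8526 and 18149 in controls; the groups did not overlap, but the log2 fold change of 2.29 just missed the threshold (adjusted p = 0.0525). The non-classical genes H2-Q4, H2-Q5, H2-Q6, H2-Q7, H2-T10, H2-T22, H2-T23 and H2-M3 rose by between 2.63 and 5.46. Tapbp (2.69), Tapbpl (3.22) and the peptide-trimming Erap1 (2.30) rose too. The general chaperones Calr, Canx and Pdia3 were not called (0.05, -0.12 and 0.12). Calls of Nlrc5, Tap1, Tap2, Tapbpl, H2-M3, H2-T10 and H2-T23 held in all 8 leave-one-out fits; those of B2m and H2-K1 were lost without IFNg A, control A or control B (adjusted p up to 0.142 and 0.214), and those of H2-Q4, H2-Q5, H2-Q6, H2-Q7, H2-T22, Tapbp and Erap1 without IFNg A, control A or control B in 1 to 3 fits each (up to 0.158).

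Most proteasome calls were in the list of genes exchanged or added by interferon, which holds catalytic subunits, an activator and an assembly chaperone. All 6 measured genes of that list rose, with a median of 3.26, whereas 1 of 29 genes of the constitutive proteasome rose and none fell, with a median of 0.14. Psmb9, a catalytic subunit of the immunoproteasome, had 6123 and 5939 normalized reads in IFNg libraries A and B, against 61.8 and 140.4 in control libraries A and B (log2 fold change 6.0, standard error 0.45, adjusted p = 0.00101). Psmb8 had 17403 and 20041 in IFNg libraries, against 284 and 1078 in controls (log2 fold change 5.07, adjusted p = 0.00612), and Psmb10 8356 and 8692 in IFNg libraries, against 388 and 727 in controls (log2 fold change 4.0, adjusted p = 0.00274). The 3 constitutive subunits that these replace, Psmb6, Psmb5 and Psmb7, were not called and had log2 fold changes of 0.14, -0.04 and 0.10. Psme1 and Psme2, the PA28 activator, both rose by 2.51 (adjusted p = 0.00275 and 0.00275). Pomp, the assembly chaperone, had 7343 and 7133 in IFNg libraries, against 4451 and 4318 in controls (log2 fold change 0.72, adjusted p = 0.0105), and Psma1, the constitutive subunit that was called, had 9586 and 9848 in IFNg libraries, against 5597 and 6148 in controls (log2 fold change 0.73, adjusted p = 0.0285). Psmb9, Psmb10, Psme1 and Psme2 were called in all 8 leave-one-out fits, Psmb8 in all but the fit without control A (adjusted p = 0.0794), and Pomp and Psma1 in none that left out a CD90neg library (up to 0.141 and 0.219).

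Of 12 measured MHC class II genes, which present peptides to CD4 T cells, 7 rose from low control levels, none fell, and the median was 3.70. Ciita, the master regulator of class II genes, had 687 and 1746 normalized reads in IFNg libraries A and B, against 10.3 and 3.12 in control libraries A and B (log2 fold change 7.33, standard error 0.64, adjusted p = 0.00173). Cd74, the invariant chain, had 1121 and 3903 in IFNg libraries, against 42.2 and 11.4 in controls (log2 fold change 6.50, standard error 0.74, adjusted p = 0.00453). H2-Ab1 had 1029.5 and 1146 in IFNg libraries, against 55.6 and 1.04 in controls (log2 fold change 6.66, standard error 1.01, adjusted p = 0.0153), and H2-Aa 401 and 1114 in IFNg libraries, against 16.5 and 1.04 in controls (log2 fold change 6.81, standard error 1.09, adjusted p = 0.0183). H2-Eb1, H2-DMa and H2-DMb1 rose by 5.18, 3.69 and 3.70. IFNg libraries lay above controls in each of these 7 genes, with controls higher in A than in B for Ciita, Cd74, H2-Ab1 and H2-Aa. Rfx5, Rfxank and Rfxap, the DNA-binding factors that recruit CIITA, were not called (0.14, 0.02 and -0.11), nor was the protease Ctss, with 204 and 216 in IFNg libraries, against 93.7 and 12.5 in controls (log2 fold change 2.56, adjusted p = 0.336). Class II genes are also expressed by leukocytes, whose summed markers were given above; the part of such cells in the class II levels was not tested. Ciita, Cd74, H2-Eb1 and H2-DMb1 held in all 8 leave-one-out fits. H2-Ab1 lost its call without IFNg B (adjusted p = 0.0758), H2-Aa without IFNg A or IFNg B (up to 0.128), and H2-DMa without IFNg B, control A or control B (up to 0.173).

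Of 17 measured chemokines, 6 rose and 1 fell, and the median was 1.03; the 3 ligands of CXCR3 and Ccl2 were among those that rose. Cxcl9, a ligand of CXCR3 on activated T cells, had 77049 and 53657 normalized reads in IFNg libraries A and B, against 307 and 8.32 in control libraries A and B (log2 fold change 10.23, standard error 1.0, adjusted p = 0.00263). Cxcl10, a second ligand of CXCR3 and the gene whose promoter is printed above, had 29909 and 26178 in IFNg libraries, against 222 and 169.6 in controls (log2 fold change 7.16, standard error 0.46, adjusted p = 0.000799), and Cxcl11, the third, 94.6 and 178 in IFNg libraries, against 4.12 and 3.12 in controls (log2 fold change 4.83, standard error 0.58, adjusted p = 0.00606). Ccl2, which attracts monocytes, had 532 and 401 in IFNg libraries, against 47.3 and 59.3 in controls (log2 fold change 3.10, adjusted p = 0.00268). Cx3cl1, a membrane-bound chemokine, rose by 2.09 (adjusted p = 0.00297), and Cxcl5, a neutrophil attractant, by 1.42 (adjusted p = 0.0451). Ccl9 fell, with 15.9 and 40.01 in IFNg libraries, against 106 and 160.2 in controls (log2 fold change -2.32, adjusted p = 0.0393). Ccl5, with 106 and 312 in IFNg libraries, against 22.6 and 138 in controls, and Cxcl1, with 2943 and 1832 in IFNg libraries, against 3043 and 4103 in controls, were not called (1.67 and -0.61), nor were Ccl7 (2.64), Cxcl12 (-0.93) and Cxcl16 (0.58). Calls of Cxcl9, Cxcl10, Ccl2 and Cx3cl1 held in all 8 leave-one-out fits. Cxcl11 lost its call without IFNg B, control A or control B (adjusted p up to 0.0703), Cxcl5 in 7 fits (up to 0.268) and Ccl9 in 6 (up to 0.257).

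A minority of cytokine and receptor genes changed, but a larger share in each list than the 4.14% called over all genes tested. Of 22 measured cytokines and soluble inhibitors, 4 rose and 2 fell, with a median of 0.03. Tnfsf10 (TRAIL), a death ligand, had 622 and 1612 in IFNg libraries, against 5.15 and 86.3 in controls (log2 fold change 5.43, adjusted p = 0.00483). Il1a had 1702 and 3442 in IFNg libraries, against 34.0 and 123 in controls (log2 fold change 5.20, adjusted p = 0.0032), and Il18bp, a soluble inhibitor of IL-18, 1834 and 2457 in IFNg libraries, against 65.9 and 52.0 in controls (log2 fold change 5.16, adjusted p = 0.000931). Lif rose by 0.72 (adjusted p = 0.0306) and Tgfb3 fell by 0.80 (adjusted p = 0.0114). Il6 and Tnf were not called (-0.18 and 0.08), and Csf2, with 115 and 56.2 in IFNg libraries, against 238 and 756 in controls, was not called either (log2 fold change -2.38, adjusted p = 0.147). Of 19 cytokine receptors, 5 rose and none fell (median 0.28). Il15ra, which presents IL-15, had 1848 and 1728 in IFNg libraries, against 122 and 258 in controls (log2 fold change 3.32, adjusted p = 0.00243), and Osmr, the oncostatin M receptor, 2036 and 2824 in IFNg libraries, against 679 and 1099 in controls (log2 fold change 1.47, adjusted p = 0.00218). Lifr, Il13ra1 and Il4ra rose by 1.88, 1.27 and 0.82. Of 16 TNF-family receptors, 3 rose, none fell, and the median was -0.11: Tnfrsf14 (HVEM) by 5.65, Tnfrsf1a by 1.11 and Fas by 0.96. Calls of Tnfsf10, Il18bp, Il15ra and Osmr held in all 8 leave-one-out fits, and Il1a lost its call without control A (adjusted p = 0.0521) and Tnfrsf1a without IFNg B (0.075). The calls of Tnfrsf14, Il4ra and Tgfb3 were lost in 3 fits each, that of Il13ra1 in 4, and those of Lif, Lifr and Fas in 6 (up to 0.314).

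Ligands that act on T cells changed in 3 of 15 measured genes, all higher, with a median of 0.37. Cd274 (PD-L1), the ligand of PD-1, had 10893 and 2597 normalized reads in IFNg libraries A and B, against 71.0 and 27.05 in control libraries A and B (log2 fold change 6.89, standard error 0.43, adjusted p = 0.000799). IFNg libraries lay far above controls, and within each group letter A was the higher one. Nt5e (CD73), which makes adenosine, had 11742 and 5773 in IFNg libraries, against 5299 and 2382 in controls (log2 fold change 1.21, adjusted p = 0.00418), and Lgals3 rose by 0.53 (adjusted p = 0.0464). Lgals9 had a log2 fold change of 2.27 and was not called (adjusted p = 0.0606). Of 9 adhesion molecules for leukocytes, 2 rose and none fell: Icam1, with 739 and 5089.8 in IFNg libraries, against 35.0 and 439 in controls (log2 fold change 3.95, adjusted p = 0.0122), and Ceacam1, with 843 and 7058 in IFNg libraries, against 303 and 3063 in controls (log2 fold change 1.34, adjusted p = 0.0153). For both, the groups' change was seen within each letter, and letter B was several times higher than letter A. Vcam1 was not called (-0.28). The Cd274 call held in all 8 leave-one-out fits, that of Nt5e in all but the fit without control A (adjusted p = 0.0534), and those of Lgals3, Icam1 and Ceacam1 were lost in 3 to 6 fits (up to 0.414).

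Antiviral genes that type I interferon also induces rose in most cases. Of 41 measured, 29 rose and none fell, and the median was 2.96. Zbp1, a sensor of Z-form nucleic acid, had 14372 and 11668 normalized reads in IFNg libraries A and B, against 74.1 and 188 in control libraries A and B (log2 fold change 6.76, standard error 0.81, adjusted p = 0.00578). Ifit3 had 492 and 3046 in IFNg libraries, against 19.6 and 112 in controls (log2 fold change 4.67, adjusted p = 0.00271), Rsad2 (viperin) 1193 and 3107 in IFNg libraries, against 58.7 and 252 in controls (log2 fold change 3.97, adjusted p = 0.000799), and Oasl2 7619 and 12317 in IFNg libraries, against 87.5 and 968 in controls (log2 fold change 5.05, adjusted p = 0.0153). In controls each of these 4 genes stood higher in B than in A, and the IFNg libraries lay above both controls. Mx1 rose by 3.69 (adjusted p = 0.0175), while Bst2 (log2 fold change 3.15, adjusted p = 0.0764) and Ifi27 (log2 fold change 0.87, adjusted p = 0.5) were not called. Of 10 AIM2-like and STING pathway genes, 5 rose and none fell (median 4.18). Ifi203 had 928 and 611 in IFNg libraries, against 5.15 and 2.08 in controls (log2 fold change 7.44, adjusted p = 0.000514), and Ifi204, a DNA sensor, 907 and 1063 in IFNg libraries, against 14.4 and 55.1 in controls (log2 fold change 5.06, adjusted p = 0.00191), whereas Tmem173 (STING), Tbk1 and Mavs were not called (0.90, 0.41 and 0.24). Of the 29 antiviral calls, 8 held in all 8 leave-one-out fits and 1 without the letter block (Samhd1); Rsad2 and Ifit3 were among the 8, Zbp1 lost its call without control A or control B (adjusted p up to 0.0774), Oasl2 without IFNg A or control A (up to 0.124), Samhd1 without control A or control B (0.074), and Mx1 in 5 fits (up to 0.236).

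Many enzymes that attach ADP-ribose, ISG15 or ubiquitin rose. Of 17 PARP-family genes and partner, 8 rose and none fell (median 0.78). Parp14 had 12680 and 21820 in IFNg libraries, against 306 and 1956 in controls (log2 fold change 4.42, adjusted p = 0.00723), and Parp9 and its partner Dtx3l, which lie side by side on chromosome 16, rose by 3.55 and 3.57. Parp3 had 8006 and 6241 in IFNg libraries, against 1438 and 943 in controls (log2 fold change 2.60, adjusted p = 0.000354), while Parp1 and Parp2, the DNA repair members, were not called (-0.19 and 0.01). In ubiquitin and ISG15 conjugation, 8 of 12 rose and none fell (median 2.15). Ubd (FAT10), a ubiquitin-like modifier, had 478 and 5472 in IFNg libraries, against 1.03 and 67.6 in controls (log2 fold change 7.10, adjusted p = 0.00271). The ISG15 chain rose from modifier to ligase: Isg15 by 3.29, its activating enzyme Uba7 by 4.39, its conjugating enzyme Ube2l6 by 4.98 and its ligase Herc6 by 3.21. Of 20 TRIM ubiquitin ligases, 10 rose and none fell (median 0.76), among them Trim21, an intracellular antibody receptor, with 1659 and 2732 in IFNg libraries, against 211 and 392.2 in controls (log2 fold change 2.88, adjusted p = 0.000799), and Trim30a by 3.65. Of 6 Schlafen genes, 4 rose and none fell (median 1.72), with Slfn5 at 4.35 and Slfn2 at 3.47. Calls of Parp3, Ubd, Ube2l6, Herc6 and Trim21 held in all 8 leave-one-out fits; Parp14 lost its call without control A (adjusted p = 0.0776), Uba7 and Dtx3l without IFNg A or control A (up to 0.124), Slfn2 in 5 fits (up to 0.214), and Parp9, Isg15, Slfn5 and Trim30a lost theirs without any 1 of 3 libraries (up to 0.218).

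Enzymes that make nitric oxide and itaconate or break down tryptophan rose from low control levels. Nos2, which makes nitric oxide, had 18922 and 23194 normalized reads in IFNg libraries A and B, against 87.5 and 32.3 in control libraries A and B (log2 fold change 8.59, standard error 0.65, adjusted p = 0.00106). Ido1, which breaks down tryptophan, had 367 and 1429 in IFNg libraries, against 2.06 and 0 in controls. Its controls held 2 reads and 0 reads, so the ratio of 878 had a 95% exact counting interval of 243 to 7253 (adjusted p = 0.00218). Acod1, which makes itaconate, had 169 and 776 in IFNg libraries, against 4.12 and 21.8 in controls (log2 fold change 5.07, standard error 0.49, adjusted p = 0.00251). Wars, the tryptophan tRNA ligase, had 30840 and 16356 in IFNg libraries, against 4254 and 3000.4 in controls (log2 fold change 2.65, standard error 0.32, adjusted p = 0.00606), and Asns rose by 0.76 (adjusted p = 0.0281). Of the 17 measured genes of this list, these 5 rose, none fell, and the median was 0.76; Arg1 and Ass1 were not called (1.06 and -0.35). Nos2, Ido1 and Acod1 held in all 8 leave-one-out fits; Wars lost its call without control A or control B (adjusted p up to 0.0774) and Asns in 5 fits (up to 0.233).

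Of 14 measured complement genes, 3 rose and none fell (median 1.03), and the letters often differed in size. C4b had 1352 and 5719 in IFNg libraries, against 5.15 and 107 in controls (log2 fold change 6.75, standard error 0.57, adjusted p = 0.00159), C1s1 8105 and 6997 in IFNg libraries, against 49.4 and 246 in controls (log2 fold change 6.08, standard error 1.03, adjusted p = 0.0233), and C3, the central component, 483 and 2196 in IFNg libraries, against 221 and 914 in controls (log2 fold change 1.19, standard error 0.21, adjusted p = 0.0297). Serping1, the inhibitor of C1 proteases, had 64.6 and 789 in IFNg libraries, against 5.15 and 0 in controls; it was higher with IFNg in both letters, with a control of 0 in B, and was not called (adjusted p = 0.0693). C1ra, with 1173 and 1563 in IFNg libraries, against 16.5 and 32.3 in controls, also missed the threshold (log2 fold change 5.81, adjusted p = 0.056). Of 16 apolipoprotein L and serpin genes, 6 rose and none fell (median 1.70). Apol6 had 4556 and 6237 in IFNg libraries, against 17.5 and 35.4 in controls (log2 fold change 7.68, adjusted p = 0.00105), and Serpina3f 1443 and 475 in IFNg libraries, against 9.26 and 0 in controls (log2 fold change 8.02, adjusted p = 0.000904). Serpinb9, which inhibits granzyme B, had 908 and 1172 in IFNg libraries, against 127 and 286 in controls (log2 fold change 2.43, adjusted p = 0.00679). C4b, Apol6 and Serpina3f held in all 8 leave-one-out fits; C1s1 lost its call without IFNg A, control A or control B (adjusted p up to 0.193), C3 in 6 fits (up to 0.226), and Serpinb9 without IFNg A or control A (up to 0.0791).

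Of 31 cell death genes, 11 rose and none fell (median 0.36), among them effectors of pyroptosis and necroptosis. Casp1, the inflammasome caspase, had 2889 and 2709.6 in IFNg libraries, against 232 and 299 in controls (log2 fold change 3.41, standard error 0.22, adjusted p = 0.000799), Casp4 (caspase-11) rose by 3.12, and Gsdmd, the pore-forming protein of pyroptosis, had 398 and 435 in IFNg libraries, against 30.9 and 35.4 in controls (log2 fold change 3.61, standard error 0.68, adjusted p = 0.0349). Mlkl, the pore-forming protein of necroptosis, had 6834 and 6885 in IFNg libraries, against 2124 and 2093 in controls (log2 fold change 1.70, standard error 0.11, adjusted p = 0.000885), with nearly equal values within each group. Casp12, Ripk1 and Bak1 rose by 3.39, 0.65 and 0.91. Ripk3, with 10.6 and 115 in IFNg libraries, against 7.21 and 40.6 in controls, and Casp8, Bax, Bcl2l1 and Mcl1 were not called (0.99, -0.03, -0.11, 0.09 and -0.08). Casp1, Casp12 and Mlkl held in all 8 leave-one-out fits, and Gsdmd, Casp4, Ripk1 and Bak1 were lost in 4 to 6 fits (adjusted p up to 0.243).

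Several genes outside these groups rose strongly or to high levels. Adam33, a membrane metalloprotease, had 1167 and 1092 normalized reads in IFNg libraries A and B, against 3.09 and 0 in control libraries A and B. Its controls held 3 reads and 0 reads, so the ratio of 727 had a 95% exact counting interval of 249 to 3530 (adjusted p = 0.00173). Adam8 rose by 2.37 (adjusted p = 0.0134). Ly6a (Sca-1), a surface protein used as a stem cell marker, had 50225 and 40450 in IFNg libraries, against 4959 and 3955 in controls (log2 fold change 3.35, standard error 0.21, adjusted p = 0.000799), and Ly6c1 5389.7 and 2009 in IFNg libraries, against 329 and 107 in controls (log2 fold change 4.12, standard error 0.42, adjusted p = 0.00275); 2 of 8 Ly6-family genes rose. In glycolysis and hypoxia, 3 of 28 rose and none fell (median 0.22): Hk2, with 4237 and 6335 in IFNg libraries, against 1348 and 2681 in controls (log2 fold change 1.45, adjusted p = 0.00561), Pfkp (1.02) and Bnip3 (0.96). Trib3, a target of the integrated stress response, had 5128 and 3461 in IFNg libraries, against 1764 and 765 in controls (log2 fold change 1.86, adjusted p = 0.00168); of 24 genes of the unfolded protein and integrated stress responses, Trib3 and Asns rose and none fell. Gclm, of glutathione synthesis, rose by 0.93, while Slc7a11, the cystine importer, was not called (log2 fold change 0.82, adjusted p = 0.474). Ltf (lactoferrin), a luminal secretory gene, had 371 and 25874 in IFNg libraries, against 138 and 8563 in controls (log2 fold change 1.51, adjusted p = 0.00442) and stood many times higher in B than in A in both groups. Adam33, Ly6a, Ly6c1, Hk2 and Trib3 held in all 8 leave-one-out fits; Adam8, Pfkp and Gclm lost their calls without any 1 of 3 libraries (adjusted p up to 0.199), Bnip3 in 6 fits (up to 0.235), and Ltf without IFNg B or control A (up to 0.0567).

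The 86 genes that fell included secreted factors, proteases and matrix genes. Tslp (chr18:32815383-32819799), an epithelial cytokine that acts on dendritic cells and type 2 lymphocytes, had 366 and 69.0 normalized reads in IFNg libraries A and B, against 5013 and 522 in control libraries A and B (log2 fold change -3.34, standard error 0.49, adjusted p = 0.0133). The level was higher in A than in B in both groups, and IFNg libraries were lower within each letter (log2 differences of -3.77 in A and -2.90 in B). Tfpi2, a serine protease inhibitor of the matrix, had 164 and 11.9 in IFNg libraries, against 924 and 106 in controls (log2 fold change -2.77, standard error 0.30, adjusted p = 0.00372). Mmp10 (stromelysin-2), a matrix metalloprotease, had 312 and 28.1 in IFNg libraries, against 1440 and 115 in controls (log2 fold change -2.10, standard error 0.20, adjusted p = 0.00218). Both genes showed the same pattern: letter A above letter B, and IFNg below control within each letter. Areg, an EGFR ligand, had 13434 and 1411 in IFNg libraries, against 23873 and 2754 in controls (log2 fold change -0.90, adjusted p = 0.0162). Ctgf, a matricellular protein and target of YAP and TGF-beta, had 14382 and 28577 in IFNg libraries, against 25263 and 52774 in controls (log2 fold change -0.85, adjusted p = 0.0426), the largest loss in mean normalized reads, not corrected for length, of any called gene. Ltbp2, of elastic fibres, had 13049 and 6844 in IFNg libraries, against 25710 and 23780 in controls (log2 fold change -1.39, adjusted p = 0.0115), with no overlap between groups. Npnt (nephronectin), a matrix ligand of integrins, had 763 and 589.9 in IFNg libraries, against 2647 and 1400.3 in controls (log2 fold change -1.52, adjusted p = 0.0261). Fn1 (fibronectin) had 283380 and 44514 in IFNg libraries, against 552730 and 101230 in controls and was not called (log2 fold change -1.07, adjusted p = 0.083).

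Enzymes and regulators also fell. Car2, a carbonic anhydrase, had 647 and 817 normalized reads in IFNg libraries A and B, against 1784 and 1761 in control libraries A and B (log2 fold change -1.28, standard error 0.13, adjusted p = 0.00304), and its groups were tight and apart. Of 17 carbonic anhydrase and ion transport genes, 2 fell (Car2 and Car5b, -1.03) and 1 rose (Car13, 0.87), with a median of -0.38. Among transcriptional regulators, Bhlhe40 had 7758 and 11520 in IFNg libraries, against 11270 and 20987 in controls (log2 fold change -0.70, adjusted p = 0.0251), Cited2 4881 and 3153 in IFNg libraries, against 7831 and 6233 in controls (log2 fold change -0.83, adjusted p = 0.011), and Hic1 and Mycl fell by 1.49 and 1.24. Wnt7b, a Wnt ligand, had 10722 and 3935 in IFNg libraries, against 16831 and 7376 in controls (log2 fold change -0.78, adjusted p = 0.0222); of 23 Wnt pathway genes, 2 fell (Wnt7b and the receptor Fzd6, -0.58) and 1 rose (Sfrp1, a Wnt inhibitor, 1.64), with a median of -0.11. Other genes with the largest decreases were Ccdc187 (-2.37), Gm32585 (-2.05), Adamts8 (-1.84), Ctla2a (-1.82), Bahcc1 (-1.65), Ncmap (-1.57), Csdc2 (-1.43) and 2010300F17Rik (-1.41), all at mean levels between 50 and 400 normalized reads. Cgnl1, Klk6 and Baiap2 were among the largest losses in reads, with log2 fold changes of -1.14, -1.08 and -0.57. Of the 86 decreases, 4 were called in all 8 leave-one-out fits, among them Car2, Mmp10 and Tfpi2, and Car2 was the 1 gene called lower without the letter block. Tslp and Areg lost their calls when any CD90neg library was left out (adjusted p up to 0.135 and 0.16), Ctgf in 6 fits (up to 0.381), and Csdc2 in all 8; the other decreases named in this and the previous paragraph were lost in 3 to 7 fits.

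**Figure D4:**
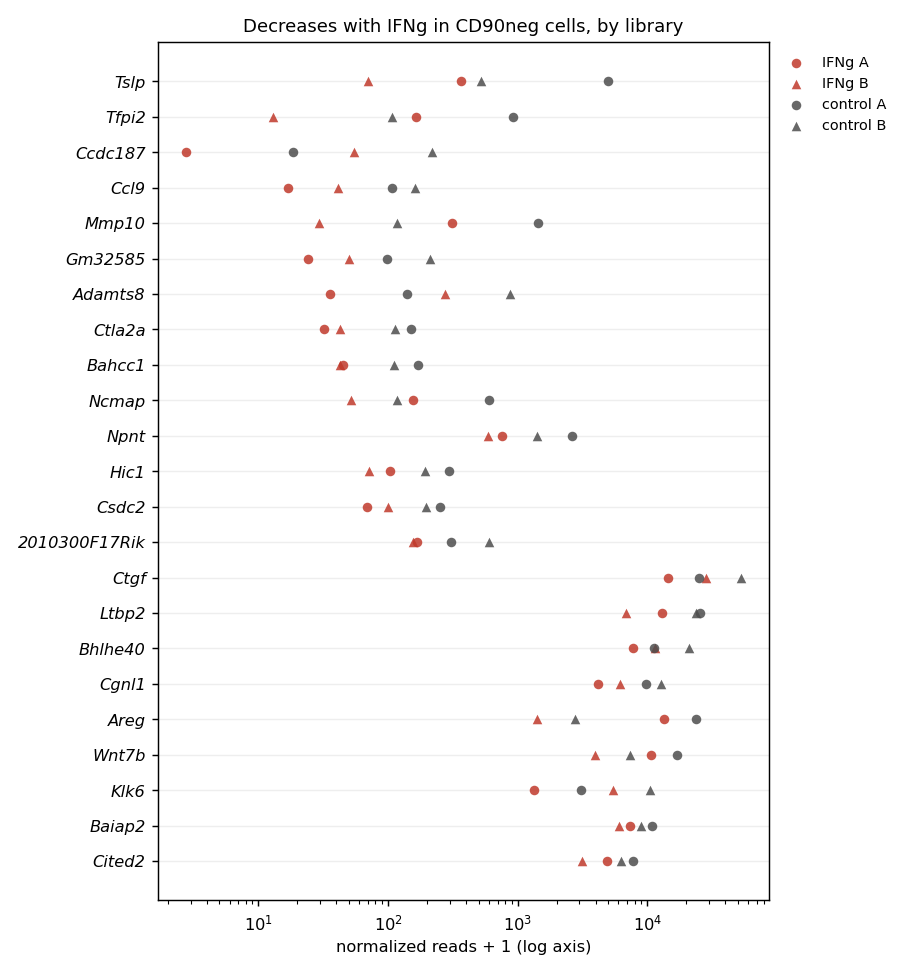
Normalized reads + 1 (horizontal log axis) in each CD90neg library for genes among the largest decreases in log2 fold change or in reads (1 gene per row; red IFNg, grey control; circles letter A, triangles letter B). Tslp, Tfpi2 and Mmp10 lie higher in letter A than in letter B in both groups, and within each letter the IFNg point lies left of the control point.

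Many processes showed few or no calls, where 4.14% of all genes tested were called. Among the lists below, those of NFkB and of ADAM and matrix metalloprotease genes lay furthest above that share. Of 34 S phase genes and 36 G2M genes, none was called, with medians of -0.02 and -0.25; G2M genes had medians of -0.12 in A and -0.38 in B, and Mki67 had 5554 and 10193 in IFNg libraries, against 7908 and 12630 in controls (log2 fold change -0.41, adjusted p = 0.415). Among cell cycle brakes and p53 targets, 1 of 28 rose (Fas) and the median was -0.19. None of 14 basal, 28 junction and hemidesmosome, 15 EMT or 13 Notch pathway genes was called; Cldn1, a tight junction protein, had 3954 and 15462 in IFNg libraries, against 449.8 and 6624 in controls and a log2 fold change of 2.18 (adjusted p = 0.077). Of 18 luminal genes, Ltf was called. Cholesterol and fatty acid synthesis had 1 call among 28 genes, the sterol sensor partner Insig1, with 1517 and 2729 in IFNg libraries, against 2701 and 4604 in controls (log2 fold change -0.79, adjusted p = 0.0133). The log2 fold changes of these 28 genes lay between -1.25 and -0.02, with medians of -0.25 in the fit, -0.41 in A and -0.06 in B. The Insig1 call was lost without any 1 of the 4 CD90neg libraries (adjusted p up to 0.14). Nuclear genes of oxidative phosphorylation had no call among 36 and a median of -0.12. In CD90pos cells 22 of the 36 were called lower, against 13.6% of all genes tested there, and the median was -0.75. For the difference in response between the populations, limma called 0 of all genes tested. The 7 mitochondrially encoded genes measured had no call, a median of 0.04 in A and -0.77 in B, and the mitochondrial share of reads was 1.28% and 0.927% with IFNg (A and B), against 1.24% and 1.56% in controls. None of 30 lysosome and autophagy genes was called, and of 23 NFkB subunits and targets 3 rose (Icam1, Cxcl5 and Lcn2), with a median of 0.14. None of 10 S100 genes was called. Of 24 ADAM and matrix metalloprotease genes, Adam33 and Adam8 rose and Mmp10 and Adam12 fell, and the median was 0.09. The 28 growth factor receptors and ligands had 1 call (Areg), and the 16 genes of cystine import and ferroptosis defence had 1 (Gclm). The Lcn2 call was lost in 4 leave-one-out fits (adjusted p up to 0.261), and that of Adam12 without IFNg B, control A or control B (up to 0.152).

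**Figure D5:**
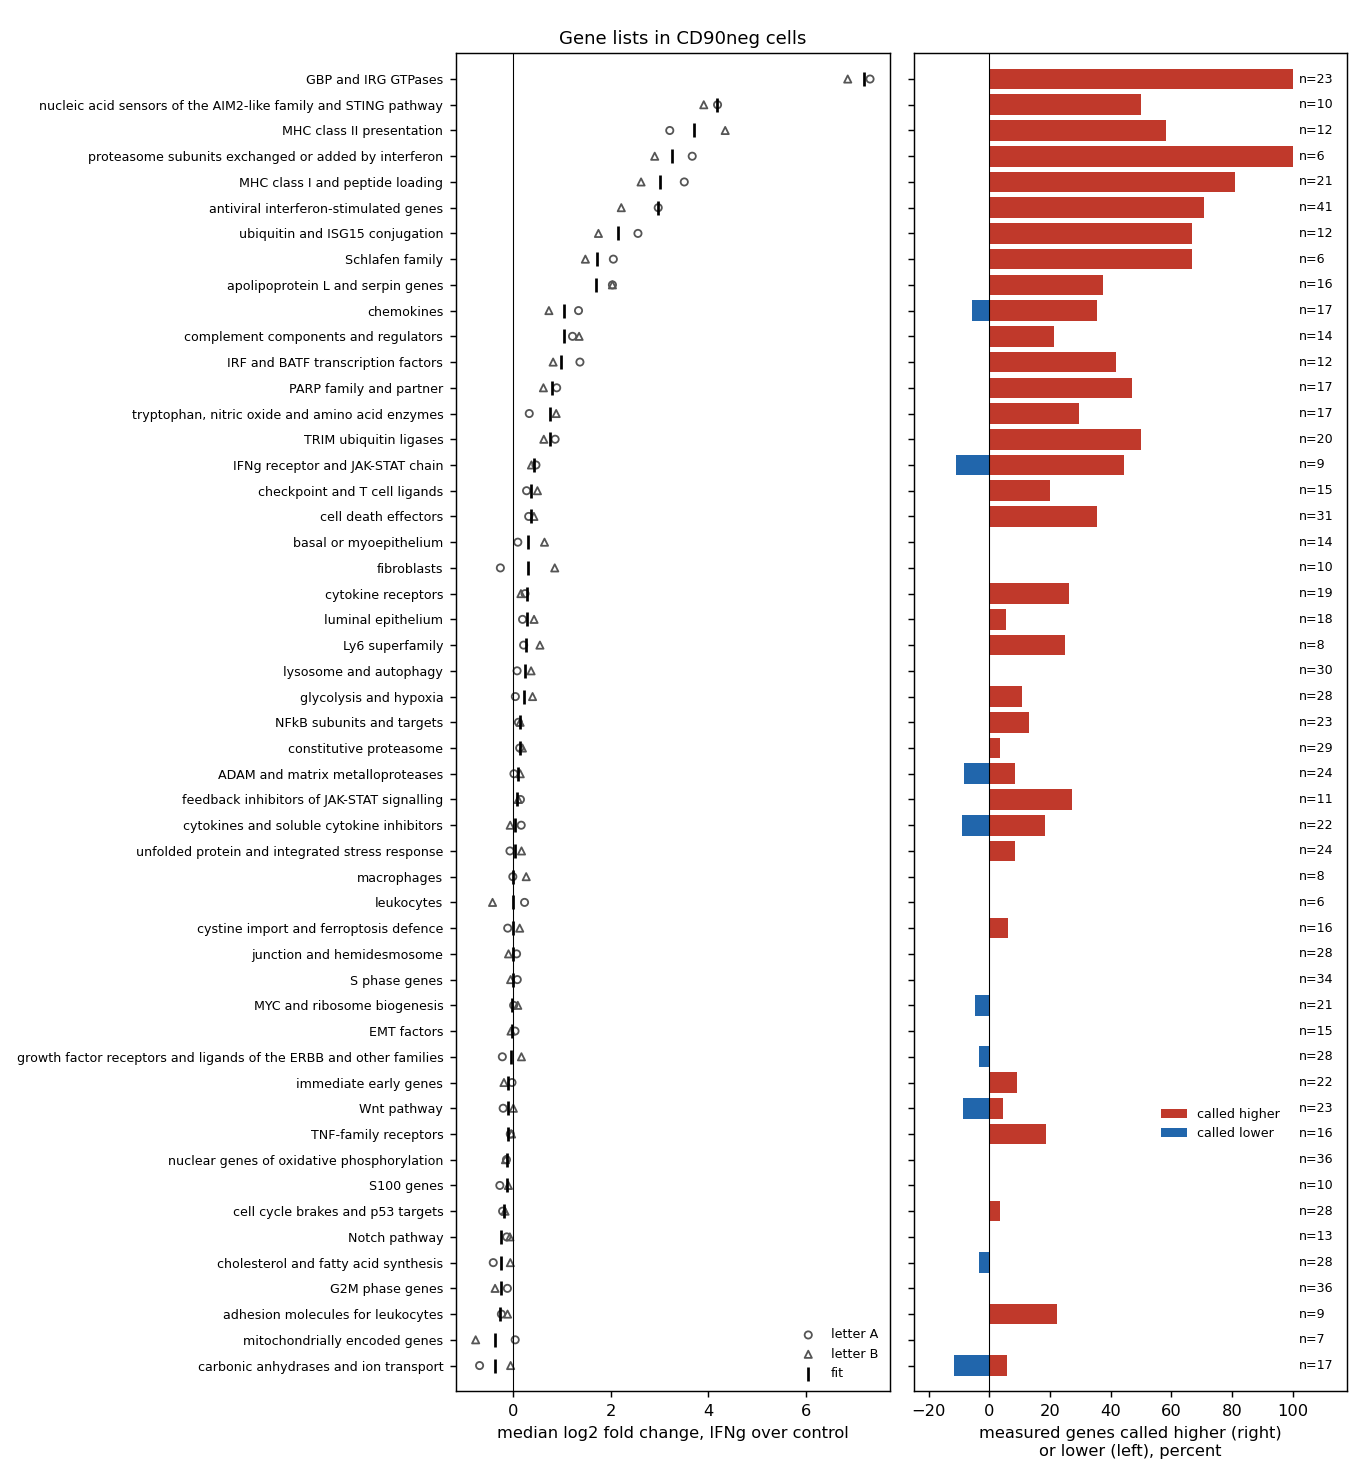
Median log2 fold change of IFNg over control in CD90neg cells for each gene list with at least 6 measured genes (left panel; circle letter A, triangle letter B, bar the fit) and percent of measured genes called higher (red, right of 0) or lower (blue, left of 0) in the right panel, with n measured genes. GBP and IRG GTPases lead with 23 of 23 called higher, and most lists outside interferon and antigen presentation have medians near 0.

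Many genes called higher lay near one another in the genome, in some clusters with uncalled genes between them. Of the 451, 190 (42.1%) were within 200 kb of another gene called higher, in 65 clusters. Of the 86 called lower, 4 were within 200 kb of another gene called lower, in 2 clusters. A smaller set offers fewer such neighbours through its size alone, so the counts of the 2 sets are not comparable. Among the 2029 tested genes with a gene called higher within 200 kb, 9.36% were called higher, against 2.39% of the other 10933 tested genes. Several intervals held called genes alone, in GRCm38 coordinates. Each interval was drawn from the first to the last called gene of a cluster. Its ends were therefore called by construction, and uncalled genes beyond them are not counted. At chr11:48861968-49135387, 10 of 10 tested genes rose, from Irgm1 to Tgtp2 and Ifi47, with a median of 5.93. At chr5:105014150-105346472, 6 of 6 rose (Gbp4, Gbp6, Gbp8, Gbp9, Gbp10 and Gbp11, median 8.72), and at chr3:142493978-142638008, 5 of 5 rose (Gbp2, Gbp2b, Gbp3, Gbp5 and Gbp7, median 7.01). At chr18:60212080-60442983, 6 of 6 rose around Iigp1 (median 8.61), at chr17:35342242-35443773, 6 of 6 around H2-Q4 to H2-Q7 (4.48), and at chr7:104244457-104507849, 6 of 6, all TRIM genes. The MHC interval chr17:33909414-34316199 was mixed: 12 of 26 tested genes rose (median 4.18), including H2-K1, Psmb9, Tap1, Psmb8 and H2-Ab1, while Brd2, Rps18, Rxrb and Ring1 between them were not called. Such neighbours include near-identical copies, whose reads may be shared.

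Most genes called in CD90neg cells were also called in CD90pos cells. In CD90pos cells IFNg changed 27.6% of the genes tested, 14% higher and 13.6% lower. Calls in CD90neg and CD90pos cells came from the same fit with a shared estimate of the spread per gene, so they are not independent. Of the 451 genes called higher in CD90neg cells, 425 (94.2%) were also called higher in CD90pos cells, 23.4% of the genes higher there. Of the 86 called lower, 75 (87.2%) were also called lower, 4.25% of those lower there. The 2 sets had median log2 fold changes of 2.37 and -1.01 in CD90neg cells and of 2.27 and -1.09 in CD90pos cells. For the difference in response, coded as CD90pos minus CD90neg, limma called 0 genes, with 2154 at an unadjusted p under 0.05; edgeR also called 0 (2133 unadjusted) and DESeq2 called 583 (2151 unadjusted). The lowest adjusted p of that difference in limma was 0.179. Among the genes called in CD90neg cells with that p, Fas had a log2 fold change of 0.96 in CD90neg cells, against -0.13 in CD90pos cells, Sat1, which degrades polyamines, 0.52 against -0.60, and Bnip3 0.96 against -0.18. Pomp had 0.72 in CD90neg cells, against 0.12 in CD90pos cells, and Tnfaip8 1.13 against 0.34. Mmp10 had -2.10 against -3.43, Ltf 1.51 against 2.50, Unc13d 0.97 against 1.88, and EPPK1 0.81 against 1.93. Of these genes, the CD90neg calls of Mmp10 and Tnfaip8 held in all 8 leave-one-out fits, while those of Fas, Sat1, Bnip3 and EPPK1 were lost in 6 (adjusted p up to 0.393) and that of Unc13d in 3 (up to 0.118). Over the genes called higher, the median standard error of the difference was 0.377 log2 units. Larger differences also missed the threshold: Nos2 had a log2 fold change of 8.59 in CD90neg cells, against 11.91 in CD90pos cells, a difference of 3.32 (adjusted p = 0.204).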

How the data were processed

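Strand-specific mRNA libraries of 4 sorted and treated groups, 2 libraries (A and B) each, were sequenced, per the labels. Reads were aligned with STAR and counted with HTSeq on mm10 (GRCm38), per the submitters' processing notes; versions, filters and the counting strand are not given in the sources used here, so overlapping and antisense genes are uncertain. The deposited signal is 1 normalized read count per gene and library: dividing by the smallest step in a library gave whole reads for 100% of values (tolerance 0.001), so the authors had divided counts by a factor per library. Depth was 31243646 to 40899909 recovered reads.

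Genes that reached 10 normalized reads in 2 or more of 8 libraries were tested on log2(normalized reads + 1) with limma 3.58.1 (R 4.3.3): 4 group means, the letter as a block, a mean-variance trend, Benjamini-Hochberg adjustment over 12962 genes, two-sided, called at adjusted p under 0.05. Every adjusted p in the text is from this limma fit unless edgeR 4.0.16 or DESeq2 1.42.0 is named. The letter pairs the libraries: A minus B differences correlated across genes between every 2 groups (Pearson r 0.779 to 0.92). The fold changes are on the log2(value + 1) scale and understate changes of low genes. A floor of 3 reads and the counting intervals cover counting error only. Exon lengths were those of GENCODE vM21. Levels are compared between genes per kb; gains and losses in reads are not corrected for length.

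Genes named are the 15 with the largest increase and the 15 with the largest decrease (mean of 50 normalized reads or more), the 10 with the largest gain and loss of reads, the 10 with the smallest p for the difference between populations, Thy1 and members of 52 lists; a few such genes are not reported here. The genes and lists were chosen with earlier results of these data known. A gene that is low in controls could enter the table through its IFNg libraries, so counts over measured list members are descriptions; listed genes outside the table were not analysed here.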

Additional observations from a re-analysis of the deposited data

How the results depend on the processing

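No call changed direction under any alternative run. Without the letter block (no pairing of libraries), 82 genes were called higher and 1 lower, all among the 451 and 86 called with it. DESeq2 with the block called 710 genes higher, 247 lower and 583 for the difference between populations; limma and edgeR called 0 for that difference. Leaving out 1 library at a time gave 212 (without CD90neg IFNg A) to 563 (without CD90pos control B) genes higher and 7 (without CD90neg IFNg B) to 135 (without CD90pos control B) lower; without CD90neg control A, 214 and 13 were called, and without CD90neg control B, 268 and 14. Each CD90neg library left out leaves its group with 1 library, which is assumed to vary like the others. The cause of these differences was not tested. The 4 CD90neg libraries alone gave 512 and 105, pseudocounts of 0.5 and 5 gave 446 and 86, and 457 and 89, a filter of 50 normalized reads 443 and 86, no filter 451 and 86, quantile normalization 402 and 96, median centring 404 and 92, and edgeR 471 and 80. The higher share of calls, 84%, was 80.7% and 81.5% under those scalings. The log2 fold change of Jak1, which was not called, was 0.014 with edgeR and between -0.082 and 0.065 with 1 library left out. Of 233 genes followed by name, the fit without the block left 178 without their call, edgeR 6, DESeq2 0, and median centring and quantile normalization 13 each. With 2 libraries per group and 3 residual degrees of freedom, small changes, or changes that differ between letters, could be missed.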

Other observations

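Of the 451 genes called higher, 262 were in no list, and of the 86 called lower, 72. The genes below were chosen after their values were seen, and each was called in all 8 fits that leave out 1 library. Tubb3, a beta-tubulin best known from neurons, had 10180 and 8425 normalized reads in IFNg libraries A and B, against 84.4 and 91.6 in control libraries A and B (limma, log2 fold change 6.70, standard error 0.67, adjusted p = 0.00271), nearly equal between letters. Sectm1b, which encodes a secreted and membrane protein, had 2346 and 2542 in IFNg libraries, against 15.4 and 6.24 in controls (log2 fold change 7.81, adjusted p = 0.000799), and Il12rb1, a receptor chain for IL-12 and IL-23, had 828 and 964 in IFNg libraries, against 6.18 and 5.20 in controls (log2 fold change 7.07, adjusted p = 0.00218). Both IFNg libraries lay far above both controls for each of these 3 genes. Mpeg1, a pore-forming protein of macrophages, had 3064 and 2218 in IFNg libraries, against 66.9 and 9.36 in controls (log2 fold change 6.62, adjusted p = 0.00271). Slamf8, also best known from myeloid cells, rose by 5.72, a size that depends on the pseudocount. Its controls held 1 read each, and the ratio of 104 had a 95% exact counting interval of 28.4 to 860. The 8 macrophage markers in the table summed to 1476 and 266 with IFNg (A and B), against 1359 and 267 in controls (A and B). The part of such cells was not tested. Pigr, which carries immunoglobulin A across epithelium, had 123 and 2045 in IFNg libraries, against 1.03 and 42.7 in controls (log2 fold change 5.74, adjusted p = 0.00344), with B far above A in both groups.

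Enzymes and secreted proteins outside the lists rose as well. Upp1, a uridine phosphorylase, had 3269 and 2204 in IFNg libraries, against 327 and 338 in controls (log2 fold change 3.01, adjusted p = 0.00103), and Xdh and Nampt, of purine and NAD metabolism, rose by 2.71 and 2.05. Fst (follistatin), which binds activins, had 19170 and 19580 in IFNg libraries, against 850.2 and 2038 in controls (log2 fold change 3.88, adjusted p = 0.00226), with control B above control A. The sensor Nod1 rose by 3.36, and Pdk4 and Mt2 by 2.43 and 2.30.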
